A study of Mus musculus with 6 samples.

Results

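Interferon-stimulated genes, the cytosolic RNA sensors and the STAT and IRF factors that act with them were followed in mouse cornea 12 months after blast injury. The set was a list of 35 gene symbols covering the IFIT, OAS, ISG15, IFI and guanylate-binding families, RNA sensors and transcription factors; the IFITM genes were not part of it. Of these, 34 had a row among the 22007 gene symbols measured, and Mx2 was not analysed here. RNA-seq libraries came from whole corneas of male C57BL/6J mice in 2 groups with 3 libraries each. The OFBI group (open-field blast injury) had been exposed awake to 1 detonation of 350 g of C-4, a plastic explosive, 3 m away, and its corneas were taken 12 months later. The Naive group carried the same 12-month label and no label of an exposure. Each library was a pool of corneas. The labels do not give the number of corneas in a pool or the age of the mice at the blast, so the spread between libraries is the spread between pools. All 6 libraries carried the same batch number.

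Interferons are secreted by cells that detect foreign nucleic acid, and they act on receptors that signal through JAK kinases to STAT factors and IRF9. STAT2 and IRF9 are part of the ISGF3 complex, which binds a short DNA element, the interferon-stimulated response element (ISRE), upstream of interferon-stimulated genes. RIG-I (Ddx58) and MDA5 (Ifih1) are helicases that bind viral RNA in the cytosol and signal through MAVS, and both are themselves interferon-stimulated, which closes a loop between detection and response. The corneal epithelium is a barrier that uses this system against herpes simplex virus and other infections, and low basal interferon signalling keeps many of these genes on in healthy tissue.

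Many of the promoters searched, though not all, hold the ISRE. RefSeq windows of 300 bases, 250 of them before the transcription start, existed for 25 of the listed genes in the GRCm38.p6 build. They were searched on both strands for an ISRE, written here as GAAA, any 2 bases, GAAA. It was found in 16 of the 25 windowed genes (64%), against 3.99% of all 27025 genes with such a window and 3.68% of the 10723 of these that were tested for expression. Another element, the GAS site of interferon-gamma signalling, written TTCNNNGAA with N for any base, was found in 8 of the 25 (32%) against 9.55% of all genes. The 30-base stretches below hold the ISRE in 3 genes that differed between the groups, Ifih1, Ddx58 and Stat2, and in 6 that did not pass the test, for comparison. Capitals mark the ISRE, which reads as a pair of TTTC where it lies on the other strand. Adjacent ISREs that overlap are capitalised as 1 run. The Ifih1 stretch lies at +21 to +50, just after the transcription start, the Ddx58 stretch spans the start at -8 to +22, and the Stat2 stretch lies upstream at -232 to -203.
Ifih1, chr2:62646206-62646235, minus strand: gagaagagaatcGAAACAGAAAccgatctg
Ddx58, chr4:40239804-40239833, minus strand: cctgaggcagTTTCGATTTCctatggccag
Stat2, chr10:128270266-128270295, plus strand: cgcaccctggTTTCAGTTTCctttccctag
Ifit1, chr19:34640785-34640814, plus strand: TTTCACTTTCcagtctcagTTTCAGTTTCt
Isg15, chr4:156200871-156200900, minus strand: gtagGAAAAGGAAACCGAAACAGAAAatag
Oas1a, chr5:120907523-120907552, minus strand: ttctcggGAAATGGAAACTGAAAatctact
Rsad2, chr12:26456553-26456582, minus strand: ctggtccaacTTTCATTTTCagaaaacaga
Gbp2, chr3:142620594-142620623, plus strand: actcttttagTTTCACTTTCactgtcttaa
Gbp7, chr3:142530273-142530302, plus strand: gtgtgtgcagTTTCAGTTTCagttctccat
An ISRE was present in 2 of the 3 windowed genes that were lower after blast, in the 1 windowed gene that was higher and in 12 of the 20 that did not pass the test. Isg15 carries 3 overlapping matches and Oas1a and Ifit1 carry 2 each. A match describes letters in the window and says nothing about binding in these corneas.

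Sequencing depth followed the groups. The OFBI libraries summed to 3410476, 3355422 and 1173472 estimated counts and the Naive libraries to 47809779, 43053764 and 41971752, a mean ratio of 16.7, so that depth and blast cannot be told apart. About 4 counts stand for 1 sequenced fragment, as inferred from the many multiples of 4 among low values, and 3 fragments over the summed OFBI libraries, or 12 counts, correspond to 1.62 CPM, the usual depth-scaled unit, which is TMM-scaled throughout. Summed markers of the corneal epithelium stood at 54735 to 73678 CPM in OFBI and 25516 to 26152 CPM in Naive libraries, and keratocyte markers at 163 to 323 against 393 to 446 CPM. Markers of both cell types were thus present in both groups, but the epithelial sums were higher and the keratocyte sums lower in every OFBI library. Markers of leukocytes, of T and NK cells and of hepatocytes also moved with the groups. In OFBI libraries 1, 2 and 3 the 6 leukocyte markers summed to 133, 66.9 and 325 CPM, the 6 T and NK cell markers to 75.4, 27.2 and 212 CPM, and the 8 hepatocyte markers to 134, 152 and 916 CPM. The Naive libraries held 19.7 to 24.2, 3.89 to 6.45 and 19.5 to 29.2 CPM of these 3 lists. The 6 dendritic cell markers summed to 28.7, 7.04 and 37.4 CPM in OFBI and 2.96 to 4.01 CPM in Naive libraries, although Flt3, Siglech, Itgax, Cd209a and Xcr1 were at 0 counts in all OFBI libraries (Xcr1 in all Naive libraries too). The 5 B cell markers summed to 0 to 4.68 CPM in OFBI and 0.884 to 1.01 CPM in Naive libraries, with Cd79a and Ms4a1 at 0 counts in all OFBI libraries. The part of these cells in the results below was not tested.

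Most interferon-stimulated genes did not pass the test, and those that did moved in both directions. Of the 33 genes that passed the filter on low counts, 4 were lower after blast, the RNA sensors Ddx58 and Ifih1 and the genes Ifi204 and Ifi44, and 2 were higher, Stat2 and Ifi27l2a (quasi-likelihood test of edgeR, p adjusted over all genes by Benjamini-Hochberg and below 0.05). The 4 make up 12.1% of the tested list, beside 10.4% of all 13941 tested genes called lower, and the 2 make up 6.06%, beside 8.41% called higher. Both shares are near the background, so the list as a whole did not stand out by its number of edgeR calls. DESeq2 called 8 of the 34 genes with a row lower and 4 higher. Beside these, it called 12% of all 14970 genes it tested lower and 12.7% higher. An unadjusted p below 0.05 was reached by 12 of the 33 genes, 9 lower and 3 higher, beside 32.9% of all genes. Gbp5 was measured but fell under the filter.

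The median log2 fold change, OFBI over Naive, was -0.57 over the 33 genes and -0.20 over all tested genes, and 69.7% of the list against 59.1% of all genes lay below 0. Scaling by library size alone moved the 2 medians to -0.76 and -0.40, and removing the trend with GC content and length moved them to -0.07 and 0.17. Of all calls, 44.8% were in the higher direction with TMM scaling, 29.8% with library size alone and 78.9% of the 19 calls left after GC and length correction. The summed CPM of all 34 genes was 807, 762 and 635 in OFBI libraries 1 to 3 and 902, 897 and 788 in Naive libraries 1 to 3, so the 2 ranges overlapped. In whole tissue, fewer cells of a type and less RNA per cell cannot be told apart.

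**Figure D1:**
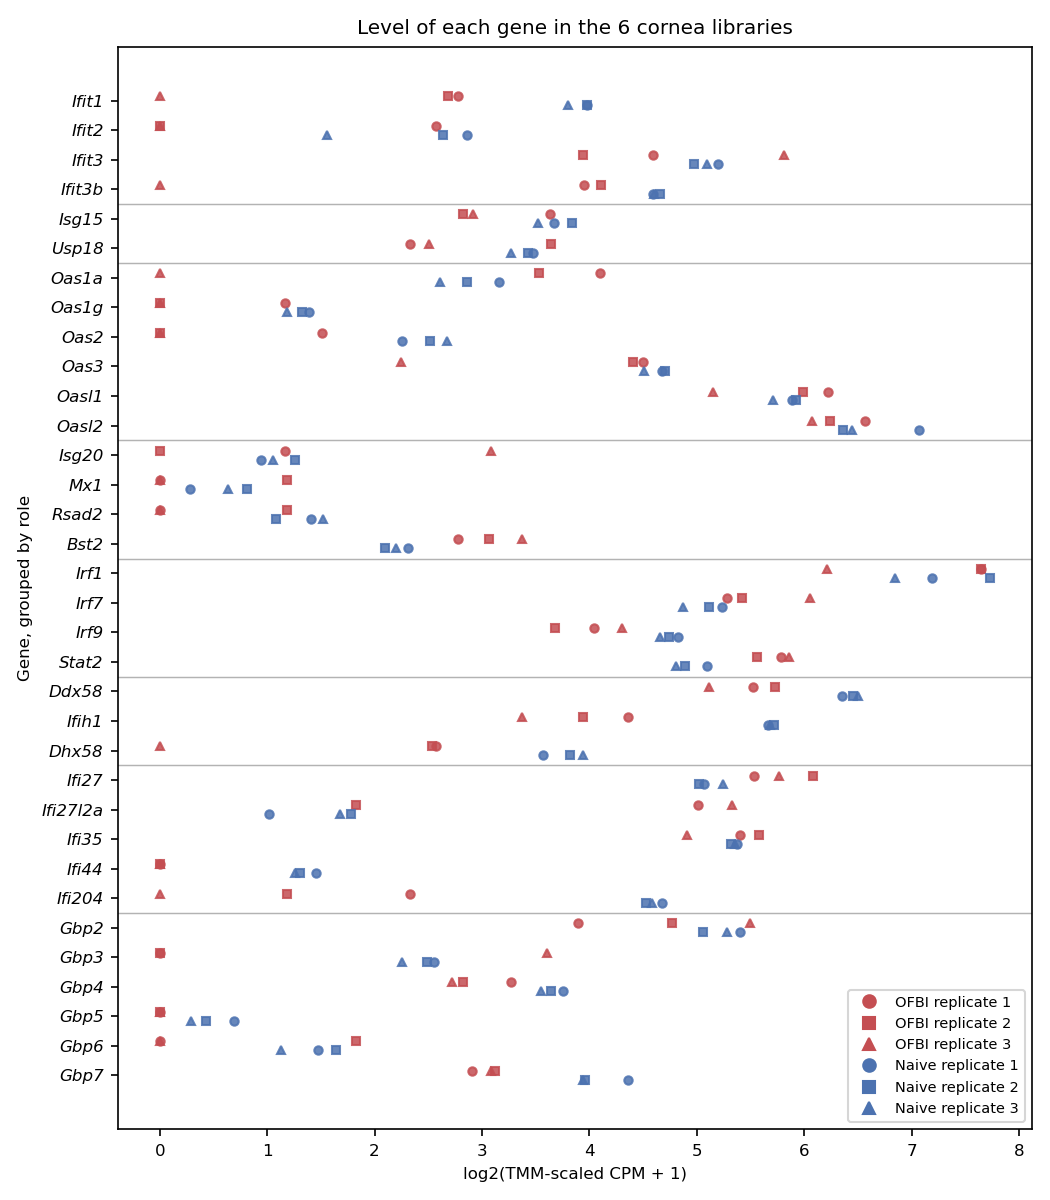
Level of each measured gene in each of the 6 libraries, as log2(TMM-scaled CPM + 1), with genes in rows grouped by role and symbols marking the replicate. The 3 OFBI points of Ifih1, Ddx58 and Ifi204 lie left of all Naive points, those of Stat2 lie right of them, and points at 0 are libraries with no count for that gene.

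Depth limits what can be said of the weakest genes. Of the 34 genes, 6, 7 and 13 had no count in OFBI libraries 1, 2 and 3, and none had 0 counts in a Naive library. For 9 genes the OFBI libraries held 12 counts or fewer in all: Oas1g, Oas2, Isg20, Mx1, Rsad2, Ifi44, Gbp3, Gbp5 and Gbp6. Of these, 6, all but Oas2, Gbp3 and Gbp6, had a Naive level under the 1.62 CPM that the OFBI depth can resolve, so a fall could not be reliably detected or sized at this depth. Ifi44, counted above among the lower genes, is among these 6, so its call rests on few expected counts. These 9 genes are given as counts, with no fold. Over the other 25 genes, 17 fold changes lay below 0 and 8 above.

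All 3 RNA sensors had every OFBI library below every Naive library, and 2 of the 3 passed the test. Across all tested genes, 29.9% had the OFBI libraries wholly below the Naive ones, and 13 of the 33 listed genes (39.4%) did.

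Ifih1, which encodes MDA5, the sensor of long double-stranded RNA, lies on chromosome 2 from 62595798 to 62646255 (GRCm38, minus strand). It stood at 19.5, 14.4 and 9.35 CPM in OFBI libraries 1, 2 and 3 and at 49.7, 51.8 and 50.4 CPM in the Naive libraries. Every OFBI library was below every Naive library, and the Naive values lay close together. The OFBI libraries held 63, 45 and 10 counts where the Naive level would have given 164, 158 and 54.2. The means were 14.4 ± 5.06 and 50.6 ± 1.07 CPM (SD, n = 3), and the log2 fold change was -1.76 (SE 0.28, adjusted p = 0.0139 by edgeR).

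Ddx58, which encodes RIG-I, the sensor of short RNA with a 5′ triphosphate, lies on chromosome 4 from 40203773 to 40239828 (minus strand). Its levels were 45.1, 51.9 and 33.7 CPM after blast and 80.9, 87.0 and 89.4 CPM in Naive corneas. The groups did not overlap, and the highest OFBI library stayed well under the lowest Naive library. The means of 43.6 ± 9.20 and 85.8 ± 4.38 CPM (SD, n = 3) gave a log2 fold change of -0.96 (SE 0.20, adjusted p = 0.0235 by edgeR).

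Dhx58, on chromosome 11 from 100694884 to 100704271, encodes LGP2, another helicase of the family that lacks the signalling domain and modulates the other two. It had 16, 15 and 0 counts in OFBI libraries and 552, 607 and 654 in Naive libraries, or 4.95, 4.80 and 0 against 10.9, 13.1 and 14.4 CPM. The groups did not overlap, but the shallowest OFBI library had no count for it. Its log2 fold change of -1.81 (SE 0.74) did not pass the test (adjusted p = 0.138 by edgeR, unadjusted p = 0.0432). DESeq2 called Dhx58 lower (-1.79, adjusted p = 0.0173).

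The direction of the 3 sensors was the same in every other setting that could be computed, 18 for Ifih1 and Ddx58 and 17 for Dhx58. The call of Ifih1 held in 14 of 18 and that of Ddx58 in 10 of 18. Ddx58 was not called by limma-voom (adjusted p = 0.0506). In edgeR it was not called with the replicate number as a block (0.071) or without OFBI replicate 1 (0.0511). Leaving out any 1 Naive library ended the calls of Ifih1, Ddx58, Ifi204, Stat2 and Ifi27l2a in the edgeR fit, while Ifi44 fell under the filter. That fit called 0 of 27 tested genes (6 of them under an unadjusted p of 0.05). In the same 3 cases DESeq2 called 5, 4 and 5 and limma-voom 4, 1 and 4. With the GC and length trend removed, Ddx58 was at -0.45 (adjusted p = 0.222 by edgeR) and -0.49 (DESeq2 adjusted p = 0.0518), and Ifih1 at -1.16 (0.0559) and -1.17 (0.000811).

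Among the transcription factors, Stat2 was higher after blast. Stat2, which works with IRF9 in ISGF3, lies on chromosome 10 from 128270559 to 128292849. It stood at 54.1, 46.1 and 57.1 CPM in OFBI libraries and at 33.3, 28.6 and 27.0 CPM in Naive libraries. All 3 OFBI libraries were above all Naive libraries. The means were 52.4 ± 5.67 and 29.6 ± 3.26 CPM (SD, n = 3), and the log2 fold change was 0.82 (SE 0.20, adjusted p = 0.0347 by edgeR). The OFBI libraries held 175, 144 and 61 counts against 95.8, 92.5 and 31.7 expected at the Naive level. Its call held in 8 of 18 other settings. In edgeR the call was lost with library size alone as the scale (log2 fold change 0.62, adjusted p = 0.0700) and without OFBI replicate 1 (0.76, 0.0700). It was also lost with no filter on low counts (0.0519), with the replicate number as a block (0.156) and with all libraries thinned to the shallowest (0.152). Removing the GC and length trend in edgeR (0.076) and using limma-voom (adjusted p = 0.0646) ended it too.

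Irf9, the DNA-binding subunit of ISGF3, did not move with Stat2. It had 15.5, 11.8 and 18.7 CPM after blast against 27.3, 25.7 and 24.2 CPM, with every OFBI library below every Naive library. Its log2 fold change of -0.77 (SE 0.28) did not pass the test (adjusted p = 0.104 by edgeR). DESeq2 called it lower (-0.79, adjusted p = 0.0150), and with the GC and length trend removed it was at -0.28 in edgeR and -0.29 in DESeq2, with no call. The gene overlaps Rnf31 on the same strand, so reads of the 2 may have been split.

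Irf7, the factor that amplifies type I interferon production, stood at 38.0, 41.9 and 65.5 CPM after blast and 36.7, 33.7 and 28.2 CPM in Naive corneas. The OFBI libraries were all above, though OFBI library 1 by a small margin, and the gene did not pass the test (log2 fold change 0.54, SE 0.27, adjusted p = 0.211 by edgeR). Irf1, an activator induced by interferon-gamma, was the most abundant of the 4 factors per kilobase of exon. It stood at 200, 200 and 73.0 CPM in OFBI and 145, 212 and 114 CPM in Naive libraries, with overlapping ranges and equal means of 157 ± 73.2 and 157 ± 50.2 CPM (SD, n = 3). Its log2 fold change was 0.02 (SE 0.40, adjusted p = 0.978 by edgeR). Irf1 and Irf7 each overlap a gene on the opposite strand, Gm17334 and Phrf1, and no source used here gives the strand setting of the counting.

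The IFI genes, a group named for induction by interferon rather than for a shared structure, held the widest range of change. Ifi204, a member of the PYHIN family of nucleic acid sensors on chromosome 1 from 173747293 to 173766943, had 13, 4 and 0 counts in OFBI libraries and 1246, 1022 and 1040 in Naive libraries. The Naive level would have given 75.0, 72.4 and 24.8 counts in the OFBI libraries, so all 3 held far fewer than that. In CPM this was 4.02, 1.28 and 0 against 24.6, 22.0 and 22.9, with means of 1.77 ± 2.05 and 23.2 ± 1.31 (SD, n = 3). The log2 fold change was -3.46 (SE 0.68, adjusted p = 0.0217 by edgeR), and it lay between -4.69 and -2.73 in the other settings. Of its 50-base stretches, 30.2% occur in another gene, mostly Ifi211, so part of its reads may have been assigned elsewhere.

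Ifi44, an interferon-induced cytosolic protein gene on chromosome 3, had 0 counts in all OFBI libraries and 88, 68 and 63 in Naive libraries. It passed the test (adjusted p = 0.0274 by edgeR), but its Naive level of 1.53 ± 0.184 CPM (SD, n = 3) lies under what the OFBI depth resolves: only 4.95, 4.78 and 1.64 counts were expected there. No fold is given for it.

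Ifi27l2a, a small interferon-induced mitochondrial protein gene on chromosome 12 from 103442167 to 103443680, was higher after blast, and unevenly so. It had 101, 8 and 42 counts in the shallow OFBI libraries and 52, 113 and 100 in the deep Naive libraries. In CPM the OFBI libraries stood at 31.2, 2.56 and 39.3 and the Naive libraries at 1.03, 2.44 and 2.20. OFBI libraries 1 and 3 were far above all Naive libraries, and OFBI library 2 was barely above the highest of them. The log2 fold change was 3.66 (SE 0.95, adjusted p = 0.0402 by edgeR), with means of 24.4 ± 19.3 and 1.89 ± 0.755 CPM (SD, n = 3). The call held in 8 of 17 other settings. Without OFBI replicate 1 the gene did not pass the edgeR test (3.30, adjusted p = 0.0924). The edgeR call was also lost with no filter on low counts (0.0517) and with the replicate number as a block (0.145). It was lost as well with the Naive libraries thinned (0.0616) and with the GC and length trend removed (0.0549). By limma-voom the gene did not pass either (adjusted p = 0.0775). The order of the OFBI libraries, 3 above 1 above 2, was the order of their leukocyte and T and NK cell marker sums, whose part in this result was not tested.

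Its neighbour Ifi27, of the same family and next to it on chromosome 12, stood at 45.4, 66.9 and 53.3 CPM after blast against 32.6, 31.5 and 36.8 CPM. All OFBI libraries were above all Naive libraries, yet the gene missed the threshold (55.2 ± 10.9 against 33.6 ± 2.81 CPM, SD, n = 3; log2 fold change 0.72, SE 0.22, adjusted p = 0.0592 by edgeR). DESeq2 called Ifi27 higher (0.73, adjusted p = 0.00691). Ifi35, a partner of the NMI protein, had a log2 fold change of -0.01 (SE 0.23, adjusted p = 0.984 by edgeR), with 41.4, 46.7 and 29.0 against 40.5, 39.0 and 40 CPM.

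**Figure D2:**
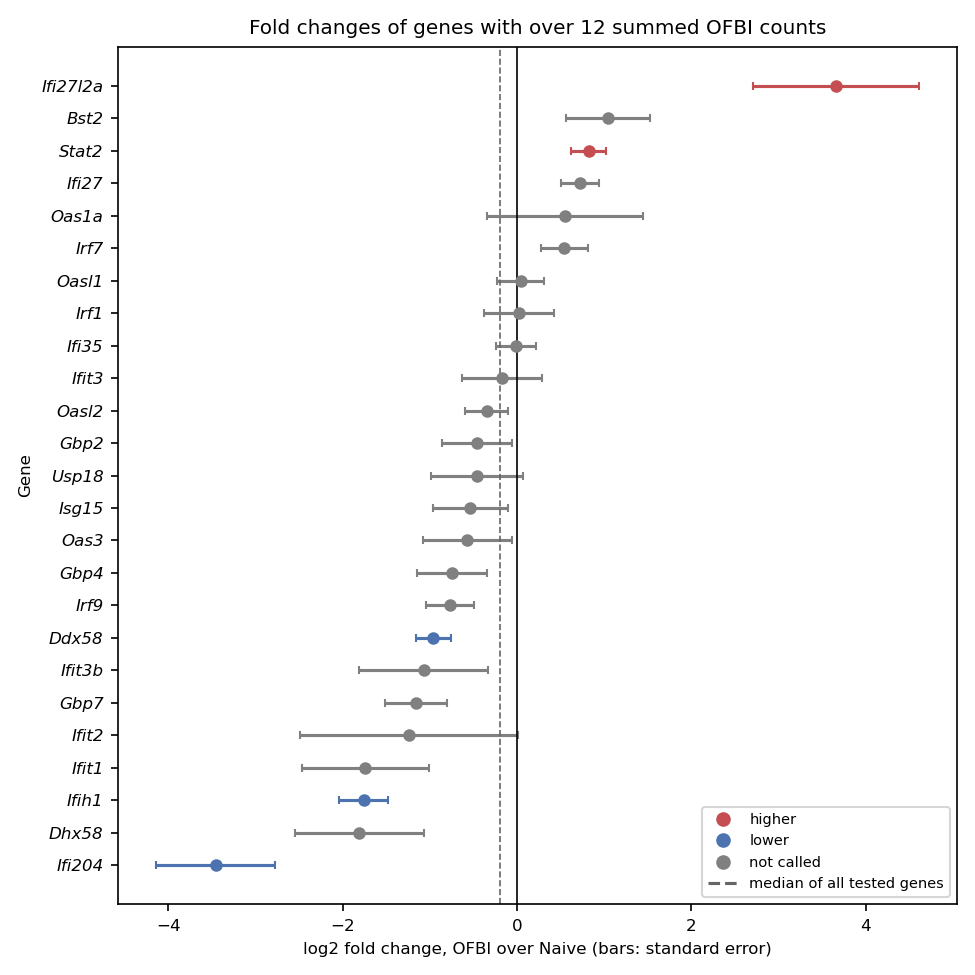
Log2 fold change, OFBI over Naive, of the 25 genes with more than 12 summed OFBI counts, with bars for 1 standard error and colour for the edgeR call. Ifi27l2a lies at 3.66 and Ifi204 at -3.46, and the dashed line marks the median of all tested genes, -0.20.

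The classical antiviral effectors gave no call: 0 of 16 tested IFIT, ISG15-system, OAS and other effector genes passed the edgeR test, and 2 of them, Ifit1 and Oas2, had an unadjusted p below 0.05. DESeq2 called Ifit1 lower and Bst2 higher, and limma-voom called Oas2 lower. The IFIT proteins bind foreign RNA ends and block its translation, and their genes are clustered on chromosome 19. Ifit3 was the most abundant of them per kilobase of exon in both groups. It stood at 23.2, 14.4 and 55.2 CPM in OFBI and 35.6, 30.5 and 33.2 CPM in Naive libraries. OFBI library 3 was above and the other two below all Naive libraries, so the groups overlapped (30.9 ± 21.5 against 33.1 ± 2.55 CPM, SD, n = 3; log2 fold change -0.17, SE 0.46, adjusted p = 0.839 by edgeR).

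Ifit3b had 47, 51 and 0 counts in OFBI and 1168, 1126 and 1059 in Naive libraries. It is a near copy of Ifit3: 51.2% of the 50-base stretches of Ifit3 occur in Ifit3b, and OFBI library 3 with the most Ifit3 had no count for Ifit3b, so the split between the 2 is uncertain. Ifit1 had 19, 17 and 0 counts where the Naive level would have given 45.8, 44.2 and 15.1. All OFBI libraries were below the Naive ones for Ifit1, at a log2 fold change of -1.74 (SE 0.73, adjusted p = 0.148 by edgeR). Ifit2 had 16, 0 and 0 against 317, 242 and 88 counts, with the groups overlapping.

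Isg15 encodes a ubiquitin-like protein that is attached to other proteins, and Usp18 the protease that removes it. Isg15 stood at 11.4, 6.08 and 6.55 CPM after blast and 11.7, 13.3 and 10.5 CPM in Naive corneas, with overlapping groups. The means were 8.02 ± 2.97 and 11.8 ± 1.38 CPM (SD, n = 3), and the log2 fold change was -0.54 (SE 0.43, adjusted p = 0.429 by edgeR). Usp18 stood at 4.02, 11.5 and 4.68 against 10.1, 9.77 and 8.64 CPM and overlapped as well.

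The 2′-5′ oligoadenylate synthetases make a messenger that activates RNase L when they bind double-stranded RNA, and Oasl1 and Oasl2 are relatives that bind RNA but do not make it. Oasl2 took the most counts of the 6, at 93.7, 74.6 and 66.4 after blast and 133, 81.1 and 86.4 in Naive corneas. The groups overlapped, and the spread among the Naive libraries was wider than the gap between the means (78.2 ± 14 and 100 ± 28.7 CPM, SD, n = 3; log2 fold change -0.35, SE 0.25, adjusted p = 0.371 by edgeR). Oasl1 was level, with 73.6, 62.4 and 34.6 against 58.0, 59.9 and 51.2 CPM.

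Oas3 stood at 21.6, 20.2 and 3.74 CPM after blast and at 24.5, 25.1 and 21.7 CPM in Naive corneas. The OFBI libraries were all below, 2 of them narrowly, with only 4 counts in OFBI library 3. Oas2 had 6, 0 and 0 counts where the Naive level would have given 15, 14.5 and 4.96. Oas1a, at 52, 33 and 0 against 401, 291 and 231 counts, and Oas1g, at 4, 0 and 0 against 82, 70 and 58, share sequence (57.6% of the 50-base stretches of Oas1a occur in Oas1g), so their separate values are uncertain.

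Bst2 encodes tetherin, which holds budding virus at the cell surface, and was the effector with the largest excess after blast among those with more than 12 OFBI counts. It stood at 5.87, 7.36 and 9.35 CPM in OFBI and at 3.97, 3.28 and 3.59 CPM in Naive libraries. All OFBI libraries were above all Naive libraries, as for 5 of the 33 listed genes (15.2%) and 16.4% of all tested genes. The difference did not pass the test (7.53 ± 1.75 against 3.61 ± 0.347 CPM, SD, n = 3; log2 fold change 1.04, SE 0.48, adjusted p = 0.185 by edgeR), and the 3 OFBI libraries held only 19, 23 and 10 counts. The GTPase gene Mx1 had 0, 4 and 0 counts against 11, 35 and 25, Rsad2 (viperin) 0, 4 and 0 against 84, 52 and 85, and the exonuclease gene Isg20 4, 0 and 8 against 47, 65 and 49. In these 3 genes a count of 4 in an OFBI library corresponds to about 1 fragment.

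The guanylate-binding proteins are large GTPases induced mainly by interferon-gamma that attack the vacuoles of intracellular pathogens. None of the 5 tested passed the edgeR test or was called by limma-voom, and 1, Gbp7, had an unadjusted p below 0.05 and was called lower by DESeq2. Gbp2 was the most abundant per kilobase of exon in both groups. It stood at 13.9, 26.3 and 44.0 CPM after blast and 41.3, 32.3 and 38.0 CPM in Naive corneas. OFBI library 3 was above all Naive libraries and the other two below, so the groups overlapped (28.0 ± 15.1 against 37.2 ± 4.53 CPM, SD, n = 3; log2 fold change -0.46, SE 0.40, adjusted p = 0.472 by edgeR).

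Gbp7 was tight within the OFBI group, at 6.49, 7.68 and 7.48 CPM, and stood at 19.5, 14.6 and 14.4 CPM in Naive corneas. The groups did not overlap, and the log2 fold change was -1.16 (SE 0.36, adjusted p = 0.0663 by edgeR). Gbp4 also had all OFBI libraries below the Naive ones, at 8.66, 6.08 and 5.61 against 12.5, 11.5 and 10.7 CPM (log2 fold change -0.75, SE 0.40, adjusted p = 0.250 by edgeR). Both carry 12.8% of 50-base stretches that occur in other genes.

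The remaining 3 were at the edge of detection after blast. Gbp3 had 0, 0 and 12 counts against 247, 214 and 171. Gbp6 had 0, 8 and 0 counts against 90, 98 and 54, and 59.7% of its 50-base stretches occur elsewhere. Gbp5 had 0 counts in all OFBI libraries and 31, 16 and 10 in Naive libraries. In each of these 3 genes at least 2 of the 3 OFBI libraries had no count.

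Per kilobase of exon, which allows genes to be set beside each other, the Naive level was highest for Irf1 (39.5 CPM per kb), followed by Ifi35 (23.1), Ifi27 (22.9), Oasl1 (21.6) and Ifit3 (19.0). Ddx58 stood at 12.2, Ifih1 at 6.20 and Dhx58 at 3.91 CPM per kb, and Gbp5 was lowest at 0.0591. After blast the 3 highest levels were those of Ifi27l2a (52.6 CPM per kb), Irf1 (39.6) and Ifi27 (37.6), and Ddx58 stood at 6.18 and Ifih1 at 1.77. The change of Ifi27l2a from 4.08 to 52.6 CPM per kb rests on OFBI libraries 1 and 3. Irf1 and Ifi27 were near the top in both groups.

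The rest of the pathway was read from a further list of 92 genes in 7 roles, of which 90 had a row and 78 passed the filter. In the edgeR test 6 were higher (7.69%) and 8 lower (10.3%), close to the shares of all genes given above, with a median log2 fold change of -0.20. The ligands could not be followed: of 8 interferon genes none passed the filter, and 7 had no count in any OFBI or Naive library. Only Ifng had counts, 4 in all in the OFBI libraries and 12 in all in the Naive libraries.

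Among the 6 receptor genes, Ifngr2, a chain of the interferon-gamma receptor, was lower at 40.5, 49.0 and 44.0 against 62.0, 71.7 and 72.5 CPM, with no overlap (log2 fold change -0.63, SE 0.17, adjusted p = 0.0478 by edgeR). Ifnar1, a chain of the type I receptor, stood at 68.9, 71.4 and 52.4 against 43.1, 39.8 and 40.3 CPM and missed the threshold (log2 fold change 0.66, SE 0.19, adjusted p = 0.0519 by edgeR). DESeq2 and limma-voom called Ifnar1 higher, and DESeq2 still did with the GC and length trend removed. Ifngr2 was called lower by DESeq2 but not by limma-voom. Of 18 other settings, 6 called Ifnar1 and 5 called Ifngr2. In Ifnar1 every OFBI library was above every Naive library, and in Ifngr2 every one was below. None of the 5 JAK kinase and STAT genes passed the edgeR test or was called by DESeq2 or limma-voom, and 1 of them, Jak1, had an unadjusted p below 0.05.

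Of the 7 other IRF genes, 2 passed, both corepressors that bind IRF2. Irf2bp2 stood at 385, 309 and 376 against 193, 179 and 175 CPM (log2 fold change 0.97, SE 0.14, adjusted p = 0.0106 by edgeR). Irf2bp1 stood at 209, 190 and 228 against 102, 112 and 113 CPM (0.93, SE 0.14, adjusted p = 0.0111 by edgeR). In both genes every OFBI library was far above every Naive library and the counts were high, with 2615 and 1513 in the summed OFBI libraries. With the GC and length trend removed Irf2bp1 was at 0.15 (adjusted p = 0.697 by edgeR, 0.705 by DESeq2) and Irf2bp2 at 1.24 (0.0553 and 0.00274).

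Of 19 genes that carry the signal of RNA and DNA sensors, 2 were lower by edgeR (10.5%, beside 10.4% of all tested genes) and 0 higher. DESeq2 called 2 higher and 1 lower and limma-voom 0 higher and 3 lower. Trim25, the ubiquitin ligase that activates RIG-I, stood at 177, 105 and 169 against 276, 280 and 227 CPM, with no overlap (log2 fold change -0.80, SE 0.22, adjusted p = 0.0478 by edgeR). Tlr7, an endosomal receptor for single-stranded RNA, had 0 counts in all OFBI libraries and a Naive level of 0.522 CPM, which is below what the OFBI depth resolves. Mavs, the adaptor of RIG-I and MDA5, stood at 60.9, 62.1 and 18.7 against 94.4, 97.7 and 85.1 CPM and did not pass (log2 fold change -0.92, SE 0.38, adjusted p = 0.144 by edgeR), though no OFBI library reached the Naive range.

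Of the 8 inhibitors, Pias1, which restrains STAT signalling, was lower at 30.9, 33.6 and 27.1 against 80.4, 71.3 and 69.0 CPM (log2 fold change -1.26, SE 0.18, adjusted p = 0.0107 by edgeR). The groups were far apart and the OFBI libraries close together. Of 33 other tested interferon-stimulated genes, 4 were higher and 4 lower by edgeR. This is 12.1% each way, beside 8.41% higher and 10.4% lower among all tested genes. The 2 with the smallest p were Tor1aip1, a nuclear envelope protein gene, at 65.6 ± 2.50 against 112 ± 3.76 CPM (SD, n = 3; log2 fold change -0.77, SE 0.14, adjusted p = 0.0176 by edgeR), and Parp14, an ADP-ribosyltransferase gene, at 38.4 ± 6.67 against 71.6 ± 1.75 CPM (SD, n = 3; -0.88, SE 0.19, adjusted p = 0.0246 by edgeR). Both had every OFBI library below every Naive library. With the GC and length trend removed, DESeq2 no longer called Ifngr2, Trim25, Pias1, Tor1aip1 or Parp14.

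The called genes also differed in base composition. GC content of the longest transcript was 40.4% to 46.6% in the 4 lower genes and 51.9% to 52.9% in the 2 higher genes, while the 27 others spanned 41.1% to 57.4%. Over the 33 tested genes the Spearman correlation of GC content with the log2 fold change was 0.68, over the 25 with more than 12 summed OFBI counts it was 0.66, and over 13806 tested genes with a value it was 0.30. These points share the same 6 libraries and are a description across genes, with no test. Dhx58 lay off this line, at 53.9% GC and a log2 fold change of -1.81, beside its relatives Ifih1 at 42.8% and Ddx58 at 46.6%. The part of base composition in the calls was not tested beyond the removal of its trend, which left 3 listed genes lower (Ifih1, Ifi204 and Dhx58) and 4 higher (Stat2, Ifi27l2a, Ifi27 and Bst2) in DESeq2. In edgeR the same removal left 0 listed genes called, with 4 lower and 4 higher at an unadjusted p below 0.05.

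**Figure D3:**
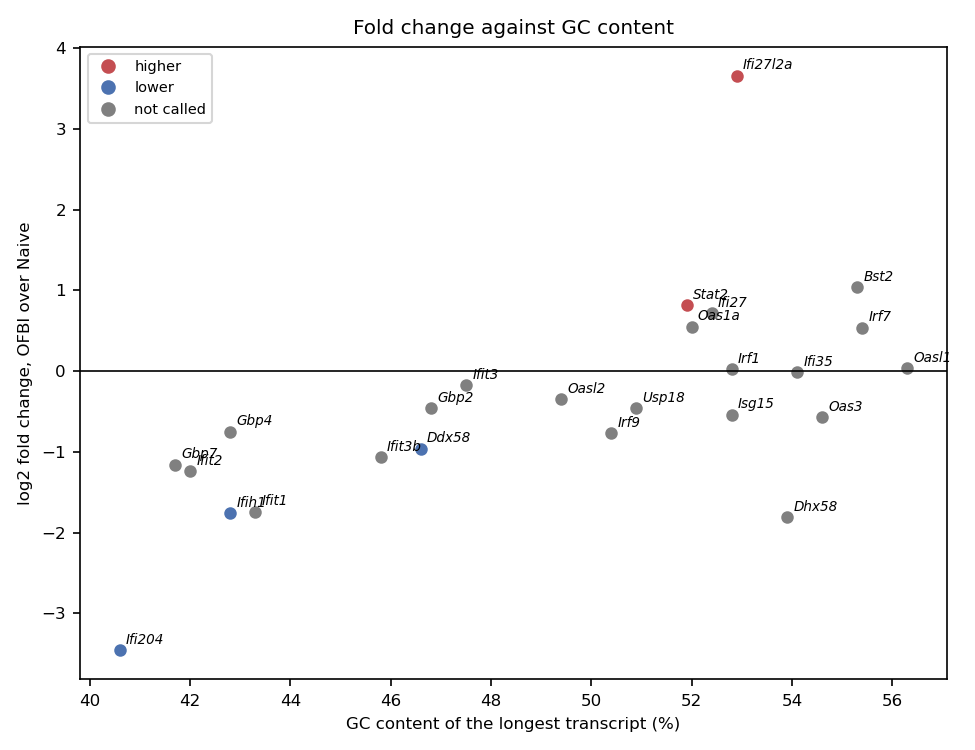
Log2 fold change, OFBI over Naive, against GC content of the longest transcript in percent, for the 25 genes with more than 12 summed OFBI counts, coloured by the edgeR call. The genes with a GC content of 47.5% (Ifit3) or less, among them Ifi204, Ifih1, Gbp7 and Ddx58, all lie under 0, and all 8 genes above 0 have a higher GC content than these.

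**Figure D4:**
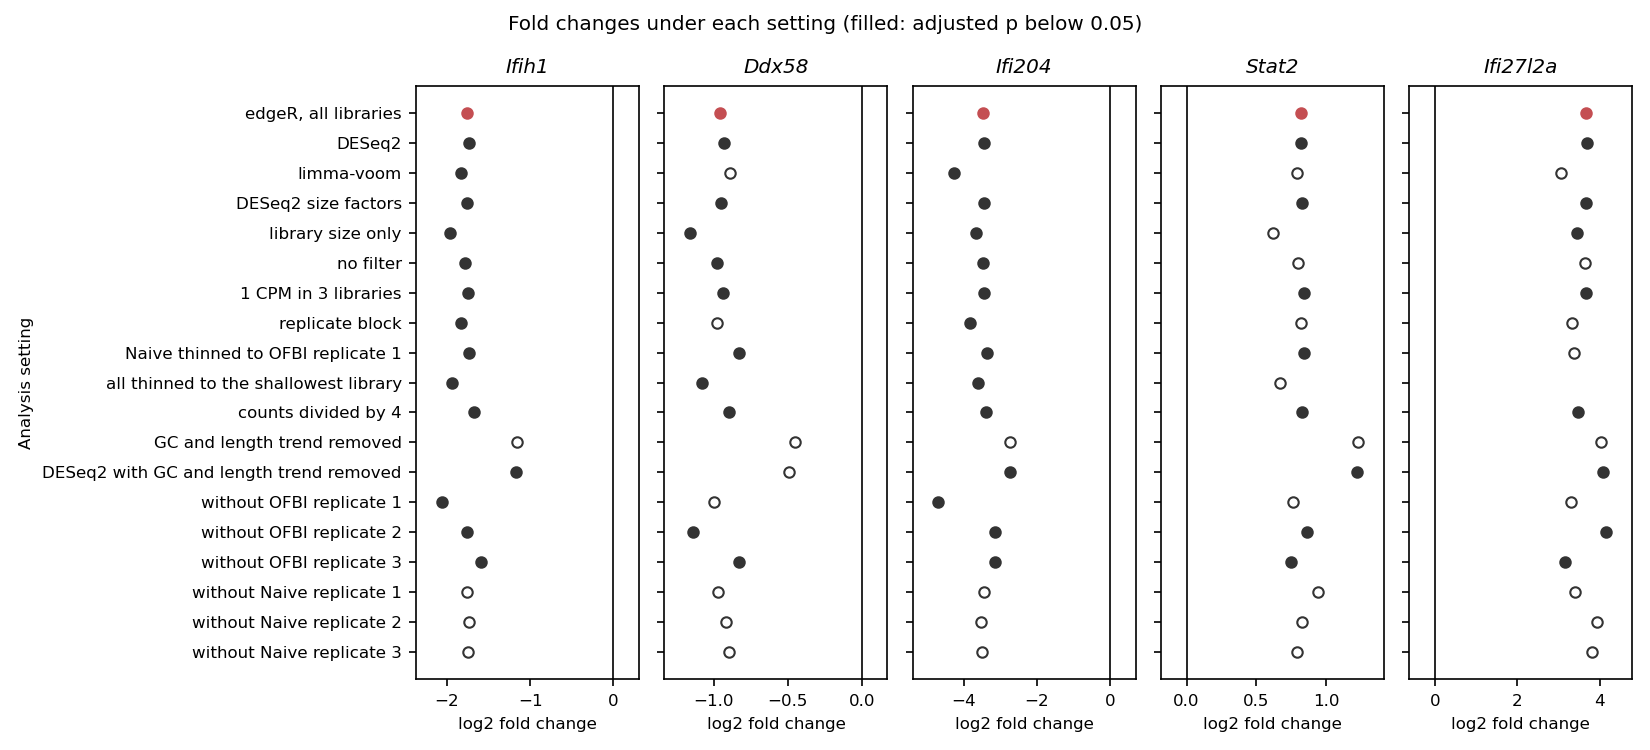
Log2 fold change, OFBI over Naive, of 5 called genes (panels) under the test as reported, in red, and 18 other settings, in rows; filled points have an adjusted p below 0.05. Each gene keeps its direction in every setting, and all 5 are open, not past the threshold, in the 3 rows that leave out a Naive library.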

How the data were processed

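The authors deposited 1 table per library of estimated counts per gene, as whole numbers not scaled for depth (unit read from the values). HISAT2, StringTie, DESeq2, FastQC and the build GRCm38 are listed in the submitters' processing notes; annotation release and strand setting: not given in the sources used here. Libraries were made from RNeasy-purified total RNA with a stranded kit, per the labels' protocols. Multiples of 4 made up 39.41% to 50.5% of values from 1 to 40, so about 4 counts were taken as 1 fragment.

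Of 22040 rows, 64 that shared 31 symbols were summed. The test was edgeR's (version 4.0.16, R 4.3.3; filterByExpr, TMM, quasi-likelihood, group only, two-sided, Benjamini-Hochberg over all genes, threshold 0.05), after a check on simulated data. SE is the log2 fold change divided by the root of F. DESeq2 1.42.0, limma-voom 3.58.1, other scalings and filters, thinning of counts, a GC and length correction and leaving out each library were alternatives. Coordinates are from GENCODE M21. The members and lists were chosen with earlier results of these data known. Called genes, and in each role the tested gene with the highest mean CPM, are given in full; other pathway genes are named where called, at most 2 per role. Replicates were not duplicates of one another (mean chi-square 16 to 56.7 per gene). Floors cover counting error only. Some items are not reported here.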

Additional observations from a re-analysis of the deposited data

How the results depend on the processing

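Of 784 single-gene values under 18 other settings, 617 kept their side of the threshold, 145 lost the call, 22 gained it and no called value reversed; of the 617, 42 uncalled values in 11 genes changed sign, among them Gbp2, Ifi35, Ifit3, Irf1, Oas1a, Oasl1 and Oasl2. In the order all genes higher, all genes lower, listed genes higher, listed genes lower, other pathway genes higher and other pathway genes lower, the reported counts were 1173, 1446, 2, 4, 6 and 8. DESeq2 gave 1905, 1796, 4, 8, 12 and 8. Removing the GC and length trend gave 15, 4, 0, 0, 0 and 0 in edgeR, where 3915 genes had an unadjusted p below 0.05, and 1996, 888, 4, 3, 12 and 2 in DESeq2, a setting added after seeing the data. Thinning the Naive libraries to the depth of OFBI replicate 1 gave 1068, 580, 1, 3, 2 and 3, and thinning all libraries to the shallowest gave 935, 460, 0, 3, 3 and 4. With no filter the counts were 943, 910, 0, 4, 5 and 4; with at least 1 CPM in 3 libraries 5 pathway genes were lower. Of the listed genes, 0 were higher with limma-voom and 1 with library size alone. Without 1 replicate in turn, the 6 counts ranged from 0 to 1611, 0 to 2065, 0 to 3, 0 to 9, 0 to 11 and 0 to 13. Every 0 among these came without a Naive replicate, except 0 listed genes higher also without OFBI replicate 1; the edgeR counts of all genes were then 97 and 9, 0 and 0 (2441 with an unadjusted p below 0.05), and 96 and 8 without Naive replicates 1, 2 and 3. The cause was not tested. The highest counts came without OFBI replicate 3, the shallowest library, except for pathway genes higher, which were highest without OFBI replicate 2.

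With the replicate number as a block the 6 counts were 540, 253, 0, 2, 2 and 1. The numbers are not stated to pair the libraries. Same-numbered libraries deviated from their group means with correlations of -0.0027, -0.0175 and 0.00783, and differently numbered ones with -0.0144 to 0.0219. Deviations in the shallow OFBI libraries hold much counting error, so these values cannot decide whether the libraries were paired. Depth differed 16.7 times between the groups and could not be separated from them.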

Other observations

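Of the interferon-gamma-induced GTPases outside the list, 3 were higher after blast; these genes are singled out after their values were seen. Igtp, Iigp1 and Tgtp1 encode GTPases of the IRG family, which act on pathogen vacuoles together with the guanylate-binding proteins. Igtp stood at 20.4, 14.4 and 61.7 CPM in OFBI libraries 1, 2 and 3 and at 7.33, 6.38 and 5.07 CPM in Naive libraries (log2 fold change 2.31, SE 0.58, edgeR adjusted p = 0.0374). Iigp1 stood at 9.89, 2.56 and 29.9 against 1.22, 1.90 and 0.925 CPM (3.32, SE 0.93, edgeR adjusted p = 0.0484). Tgtp1 stood at 5.87, 2.88 and 20.6 against 0.849, 0.712 and 0.991 CPM (3.44, SE 0.85, edgeR adjusted p = 0.0345). The call held in 11 of 18 other settings for Igtp, 5 of 16 for Iigp1 and 11 of 16 for Tgtp1. Iigp1 was not called by limma-voom (adjusted p = 0.0621) or, in edgeR, with library size alone (0.0532) or no filter (0.0614). Irgm1, Irgm2 and Ifi47, of the same family, did not pass the test (log2 fold changes -0.68, 0.74 and 0.86, edgeR adjusted p = 0.427, 0.226 and 0.245). Igtp overlaps Irgm2 on the same strand of chromosome 11, so reads of the 2 may have been split. In the 3 called genes every OFBI library was above every Naive library, and OFBI library 3 was the highest and library 2 the lowest. The leukocyte markers (133, 66.9 and 325 CPM) and the T and NK cell markers (75.4, 27.2 and 212 CPM) had the same order in these libraries, and their part in the result was not tested. The guanylate-binding genes of the list gave 0 calls in the same edgeR fit, with 1 of 5 at an unadjusted p below 0.05 and 1 called lower by DESeq2.

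Relatives of Ifi204 and 1 antiviral effector of the pathway list were also picked after their values were seen. Ifi203 stood at 6.49, 3.20 and 20.6 CPM after blast and at 1.24, 0.841 and 0.551 CPM in Naive corneas (log2 fold change 3.44, SE 0.85, edgeR adjusted p = 0.0353), with no overlap. Ifi211 had 0 counts in all OFBI libraries and a Naive level of 1.47 ± 0.408 CPM (SD, n = 3), under what the OFBI depth resolves. Zc3hav1, which encodes the zinc-finger antiviral protein, stood at 81.9, 69.1 and 56.1 CPM after blast and at 111, 127 and 128 CPM in Naive corneas (log2 fold change -0.81, SE 0.18, edgeR adjusted p = 0.0277), and the groups did not overlap. With the GC and length trend removed it was at -0.23 (edgeR adjusted p = 0.570) and -0.25 (DESeq2 adjusted p = 0.502).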
